A study of Homo sapiens with 9 samples.

Results

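Extracellular matrix outside the collagens was followed through 45 listed genes for fibronectin, laminins, nidogens, fibulins, thrombospondins, matricellular proteins, proteoglycans, fibrillins and other elastic fibre proteins, latent TGF-beta binding proteins and the lysyl oxidases that crosslink matrix. Genes were listed by name, with no threshold on measured values, but with earlier results of these data known. Shares of listed genes called, here and below, therefore only describe these lists. Each gene was read from 1 probe set that maps to it alone, the one with the highest mean log2 signal over the 9 arrays, and 44 of the 45 genes had one. LAMA3 was not analysed here. Of the 44, 38 had a signal above the array's median on at least 3 arrays and were tested among 12587 genes, out of 19775 genes with a probe set of their own. The 6 dim genes were POSTN (signal 4.92 to 11.5 over the 9 arrays), FBLN2 (1.89 to 9.41), FBLN5 (0.760 to 5.38), BGN (1.14 to 11.7), HSPG2 (1.10 to 11.4) and EMILIN1 (0.358 to 1.32), and they are not followed further.

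Cells lay down these proteins around themselves and bind to them through integrins and other receptors. Laminins and nidogens build basement membranes, fibrillins and elastin form elastic fibres on which fibulins and latent TGF-beta binding proteins assemble, and proteoglycans carry long sugar chains that hold water and growth factors. Lysyl oxidases oxidise lysine side chains so that collagen and elastin crosslink. In glioma, matrix of this kind lines vessels and is made by tumour cells with mesenchymal traits.

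U87 is an established human glioma line. A lipid reagent (Lipofectamine RNAiMAX) carried 50 nM of a duplex into the cells, which were collected after 72 h. One group received the form called miR-376a*A, another the form called miR-376a*G and the last a control duplex, and 3 arrays per group are labelled as biological replicates. The A and G forms stand for the unedited and the edited microRNA, since an edited adenosine pairs like guanosine. Both forms were compared with the control duplex and also with one another, and these 3 comparisons share arrays. The older name miR-376a* refers to the 5′ arm, printed here with its seed (bases 2 to 8) in capitals, from RefSeq, GRCh38.p14, chr14:101040788-101040809, plus strand. This is the genomic, unedited sequence, and the seed shown need not be that of the G form. The sequences of the duplexes used in the cells were not analysed here.
hsa-miR-376a-5p: gUAGAUUCuccuucuaugagua

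All arrays had been scaled to 1 trimmed mean (100.01), median signal was 18.01 to 24.57, and the highest signal was 3209 to 4336. Of 7 markers of U87 and mesenchymal glioma, 4 passed the filter. VIM (2107 to 2975) and CD44 (1475 to 2193) were bright on every array. NES (32.4 to 61.6) was much dimmer, and SOX2 (10.2 to 26.4) lay near the array median. OLIG2, S100B and the glial marker GFAP (dim, at 1.48 to 5.66) did not pass the filter. Neither did any epithelial or leukocyte marker (0 of 5 and 0 of 3). Replicate 1 as labelled of miR-376a*A and of control stood apart from the rest of its group. Across the 38 matrix genes (not independent points), Pearson's r of the array labelled miR-376a*A replicate 1 was 0.899 and 0.904 with its own label's arrays and 0.992 and 0.991 with control replicates 2 and 3. For the array labelled control replicate 1 it was 0.918 and 0.910 with the other controls and 0.997 and 0.996 with replicates 2 and 3 of miR-376a*A. The log2 signal lay nearer to the mean of the other label's 2 arrays for 37 of 38 genes on miR-376a*A replicate 1 and for 31 of 38 on control replicate 1. Counts over the 38 genes are given with all 9 arrays as labelled and on the 7 arrays left without those, and single genes' values on 7 arrays stand beside those with 9 where a call differs. Why these arrays stand apart was not tested.

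**Figure D1:**
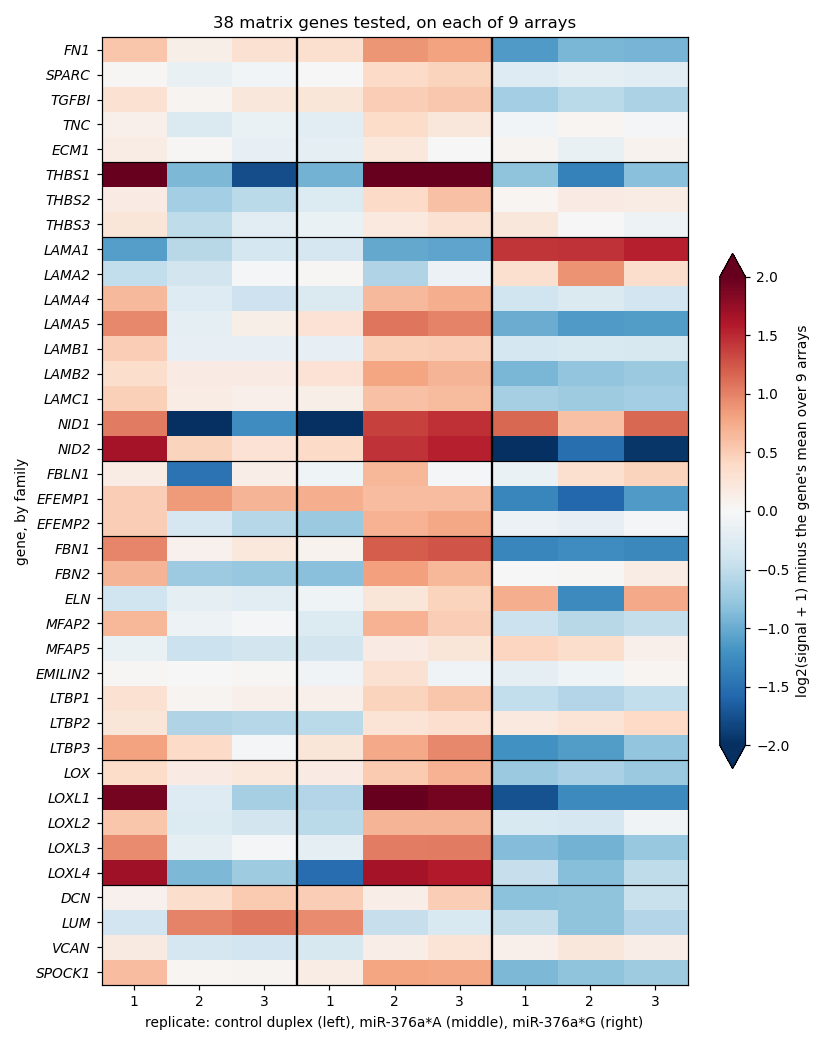
Heat map of the 38 tested matrix genes (rows, grouped by family) on 9 arrays (columns, by labelled group and replicate). Colour is log2(signal + 1) minus the gene's mean over the 9 arrays, limited to 2 in either direction; control replicate 1 resembles miR-376a*A replicates 2 and 3, and miR-376a*A replicate 1 resembles control replicates 2 and 3.

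As labelled, more matrix genes fell than rose in miR-376a*G, and none was called in miR-376a*A against control. Differences are of mean log2(signal + 1), where 1 unit is a factor of 2, and a gene is called when limma's adjusted p over all 12587 genes is under 0.05. In miR-376a*G against control, 13 of 38 matrix genes fell (34.2%, against 15.4% of all genes tested) and 2 rose (5.26%, against 18.0%). Against miR-376a*A, 17 fell in miR-376a*G (44.7%, against 16.4% of all genes) and the same 2 rose (5.26%, against 21.8%). The median difference of the 38 was -0.51 against control and -0.70 against miR-376a*A, where the medians over all genes tested were 0.12 and 0.14. In bulk RNA, fewer cells of one kind and less RNA per cell cannot be told apart. In miR-376a*A against control, no matrix gene was called higher or lower, and 0% of all genes were called higher and 0% lower. At an unadjusted p under 0.05, limma had 463 genes and 2 matrix genes (SPARC and TGFBI) there, the smallest adjusted p of a matrix gene was 0.886, and 35 of the 38 differences lay above 0 with a median of 0.33 (-0.02 over all genes).

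On the 7 arrays the counts were larger. The arrays left out were chosen because their values, on these genes too, lay with the other label. Leaving them out tends to widen differences between miR-376a*A and control and to narrow the spread. All 7-array adjusted p-values given here and below are therefore too small as evidence and only describe those arrays. For miR-376a*A, with replicates 2 and 3 against control replicates 2 and 3, 28 matrix genes were called higher (73.7%, against 19.0% of all genes) and 2 lower (5.26%, against 22.9%), with a median of 0.64 against 0.00 over all genes. For miR-376a*G against control, 17 were lower (44.7%, against 25.0%) and 10 higher (26.3%, against 31.2%), with a median of -0.10. That split turned with scaling to the hybridisation controls, to 15 lower and 18 higher with a median of 0.31, and was 16 lower and 13 higher with a median of 0.14 when scaled to the poly-A controls. Against miR-376a*A, 26 were lower in miR-376a*G (68.4%, against 25.7%) and 2 higher (5.26%, against 34.0%), with a median of -0.96. Of the 13 and 17 genes that fell with all 9 arrays, each was also called lower on the 7, and the 13 had differences from control there of -2.28 (NID2) to -0.60 (LTBP1). Leaving out control replicate 1 alone moved the median of the 38 in miR-376a*G against control from -0.51 to -0.10.

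**Figure D2:**
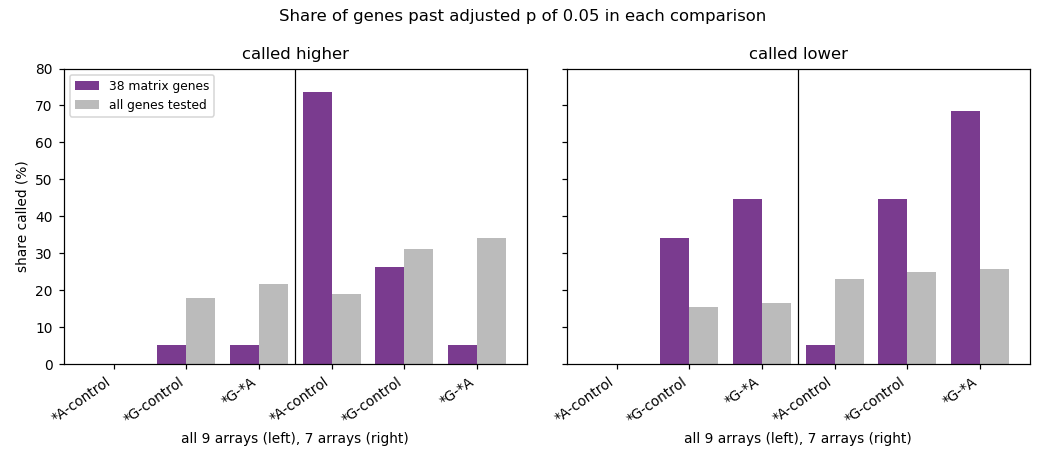
Bars give the share in percent of the 38 matrix genes and of all 12587 genes tested that were called higher (left panel) or lower (right panel) in each comparison, with all 9 arrays and on 7. Matrix genes were called lower in miR-376a*G more often than all genes were (44.7% and 16.4% against miR-376a*A with 9 arrays), and in miR-376a*A higher on 7 arrays (73.7% and 19.0%).

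The direction depends on how arrays are scaled for genes with small differences. Scaling to the hybridisation controls, RNA added in fixed amounts before hybridisation, moved the median of all genes to 0.51 in miR-376a*G against control and 0.80 against miR-376a*A, and scaling to the poly-A controls moved it to 0.40 and 0.32. Such scaling shifts all genes of an array by nearly the same amount, so the matrix median minus the median of all genes hardly changes with it by construction (-0.62 against control and -0.84 against miR-376a*A as deposited). That quantity was -0.42 and -0.60 with the mean over all probe sets of a gene, and -0.22 and -1.08 on the 7 arrays. Mean log2 signal of the hybridisation controls was 7.12 to 7.29 on the miR-376a*G arrays, 7.51 to 7.70 on the control arrays and 7.82 to 7.92 on the miR-376a*A arrays. Its part in these results was not tested beyond that scaling. Of the 15 calls in miR-376a*G against control, 12 held in each of 19 other settings (other scalings, filters and offsets, array weights, the replicate block and each array left out), and the exceptions were LAMA2, DCN and LTBP1.

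**Figure D3:**
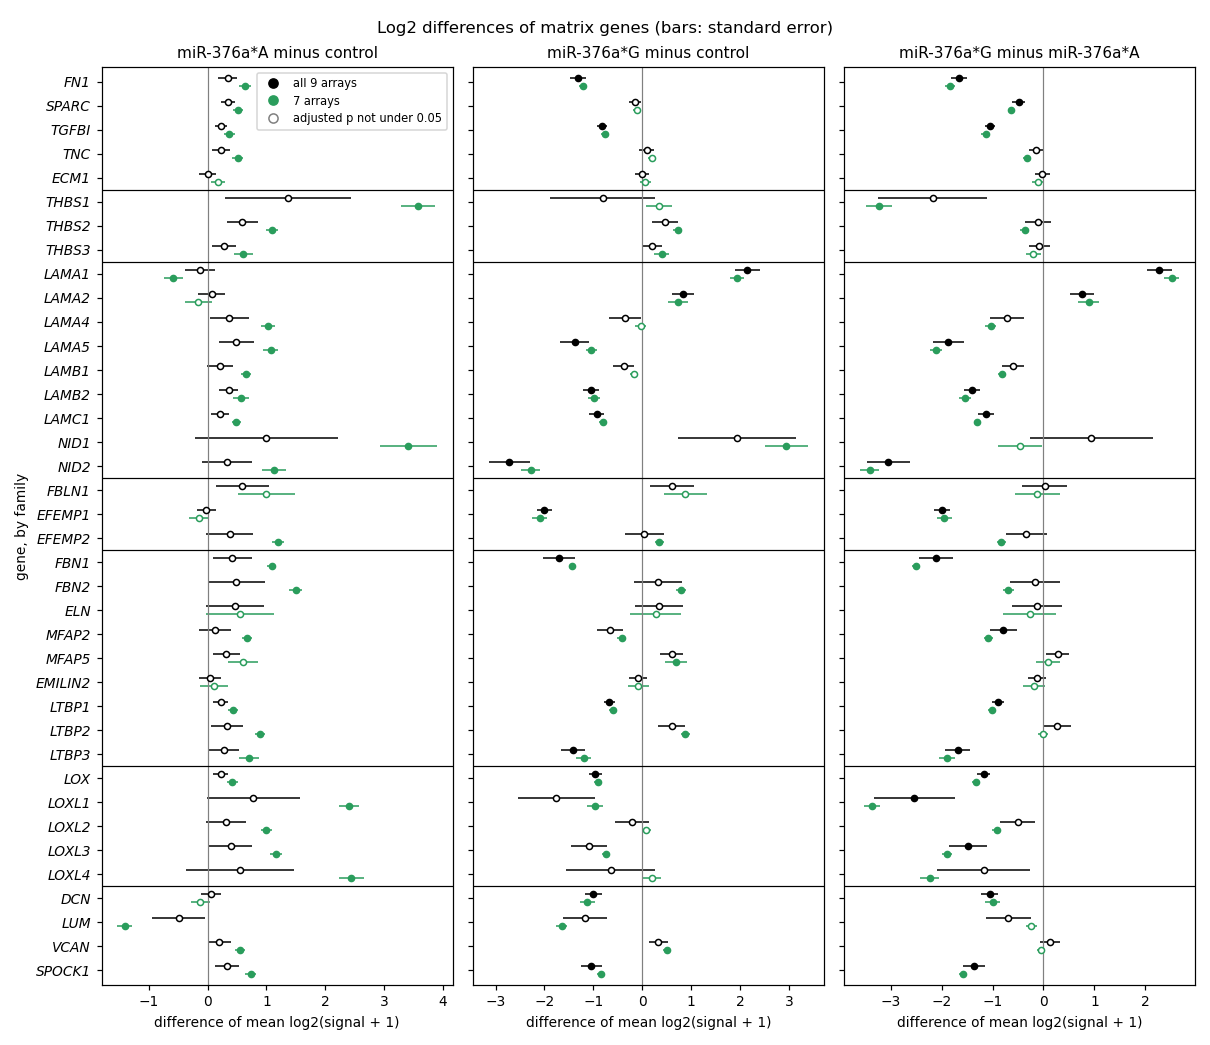
Differences of mean log2(signal + 1) with standard errors for 38 matrix genes in the 3 comparisons, with all 9 arrays (black) and on 7 arrays (green). Filled points have an adjusted p under 0.05; NID2 lies at -2.72 and LAMA1 at 2.15 in miR-376a*G minus control with all 9 arrays, and most green points in miR-376a*A minus control lie to the right of 0.

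Laminins are trimers of an alpha, a beta and a gamma chain, and here the alpha chains went in opposite directions. Of the 9 laminin and nidogen genes tested, 4 fell (LAMA5, LAMB2, LAMC1 and NID2) and 2 rose (LAMA1 and LAMA2) in miR-376a*G against control, and the same genes were called against miR-376a*A. Over all genes tested, 15.4% were called lower and 18.0% higher against control, and 2 of 9 is near the latter. The family's median difference from control was -0.38, and 0.02 when scaled to the hybridisation controls.

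LAMA1 encodes the alpha 1 chain, typical of early embryonic basement membrane. Its signal was 121, 123 and 133 on miR-376a*G replicates 1, 2 and 3, 20.1, 29.8 and 34.6 on control and 35.1, 21.3 and 20.9 on miR-376a*A. Every miR-376a*G array lay far above every other array. The difference was 2.15 (SE 0.25, adjusted p = 3.2e-04) against control and 2.28 (SE 0.25, adjusted p = 2.1e-04) against miR-376a*A. On the 7 arrays LAMA1 was also lower in miR-376a*A than in control with a difference of -0.58 (SE 0.16, adjusted p = 0.0153), a call lost with scaling to the poly-A controls. The miR-376a*A signals there were near their arrays' medians of 21.1 and 19.34, so the size of that difference is uncertain.

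LAMA2, the alpha 2 chain of muscle and nerve basement membranes, had 86.8, 129.8 and 88.3 on miR-376a*G, 48.6, 53.5 and 67.3 on control and 70.3, 44.9 and 63.8 on miR-376a*A. Each miR-376a*G array was above all others, and control and miR-376a*A overlapped. It rose by 0.83 (SE 0.23, adjusted p = 0.0234) against control and 0.76 (SE 0.23, adjusted p = 0.0297) against miR-376a*A. These calls were lost in 5 and 7 of 19 settings, among them centring on the array median and leaving out miR-376a*G replicate 2. On the 7 arrays the difference from control was 0.73 (SE 0.21, adjusted p = 0.014). The gene's other probe sets above the filter gave 0.43 (adjusted p = 0.112) and 0.53 (adjusted p = 0.0833) against control.

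LAMA5, the alpha 5 chain of mature epithelial and vessel basement membranes, went the other way. Its signal was 69.6, 63.7 and 63.8 on miR-376a*G, 274, 122 and 153 on control and 172, 297 and 280.5 on miR-376a*A. All miR-376a*G arrays lay below all others, and within the other groups the array labelled control replicate 1 was the highest control and miR-376a*A replicate 1 the lowest of its label. LAMA5 fell, with a difference of -1.38 (SE 0.30, adjusted p = 0.00781) against control and of -1.87 (SE 0.30, adjusted p = 0.00149) against miR-376a*A, and on the 7 arrays it was higher in miR-376a*A than in control by 1.07 (SE 0.13, adjusted p = 1.0e-04).

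LAMB2, the beta 2 chain, measured 44.3, 48.0 and 49.8 on miR-376a*G, 108, 94.0 and 94.8 on control and 103, 147 and 136 on miR-376a*A. LAMC1, the gamma 1 chain that most laminins share, measured 576, 555 and 569, 1271, 1010 and 976 and 986, 1378 and 1421 in the same order. In both genes each miR-376a*G array was below each of the other 6. LAMB2 fell, with a difference of -1.05 (SE 0.16, adjusted p = 0.00123) and LAMC1 fell, with one of -0.93 (SE 0.15, adjusted p = 0.00187), against control, and a second LAMC1 probe set fell too. Against miR-376a*A the differences were -1.40 and -1.13, and on the 7 arrays both were higher in miR-376a*A than in control, by 0.57 and 0.49.

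LAMB1, the beta 1 chain, and LAMA4, the alpha 4 chain of vessel basement membranes, passed no test with all 9 arrays on the probe sets used for the genes. LAMB1 had 226, 234 and 231 on miR-376a*G, 408, 259 and 257 on control and 259, 404 and 405 on miR-376a*A. LAMA4 had 85.7, 92.4 and 86.5, 179, 94.5 and 85.2 and 92.6, 177 and 189. Control replicate 1 matched miR-376a*A replicates 2 and 3 in both genes, and miR-376a*A replicate 1 matched control replicates 2 and 3. The differences from control in miR-376a*G were -0.38 (SE 0.22, adjusted p = 0.221) for LAMB1 and -0.35 (SE 0.33, adjusted p = 0.436) for LAMA4. On the 7 arrays both were higher in miR-376a*A than in control, LAMB1 by 0.65 (SE 0.09, adjusted p = 1.6e-04) and LAMA4 by 1.02 (SE 0.12, adjusted p = 7.4e-05). A second LAMB1 probe set was called lower in miR-376a*G than in miR-376a*A with all 9 arrays (-1.03, adjusted p = 0.0143), where the one used for the gene gave -0.60 (SE 0.22, adjusted p = 0.0639). A pair of further LAMA4 probe sets were called higher in miR-376a*G than in control on the 7 arrays (0.68 and 0.95), where the one used for the gene gave -0.03.

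Nidogens link laminin to collagen IV networks. NID2 had the largest fall of the 38 genes against control and against miR-376a*A. Its signal was 39.2, 68.7 and 51.0 on miR-376a*G, 629, 269.5 and 242 on control and 258, 542 and 583 on miR-376a*A. The miR-376a*G arrays were all several times dimmer than the dimmest of the others, and control replicate 1 was the brightest array. NID2 fell, with a difference of -2.72 (SE 0.42, adjusted p = 0.00137) against control and of -3.05 (SE 0.42, adjusted p = 6.7e-04) against miR-376a*A, and was higher in miR-376a*A than in control by 1.13 (SE 0.20, adjusted p = 0.0012) on the 7 arrays.

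NID1 was near the filter, above the array median on 5 of 9 arrays. It had 27.1, 18.0 and 27.2 on miR-376a*G, 25.3, 0.897 and 4.39 on control and 0.875, 31.8 and 34.2 on miR-376a*A, so that control replicate 1 was well above and miR-376a*A replicate 1 well below the rest of their labels. With all 9 arrays it was not called (1.94, SE 1.21, adjusted p = 0.25, in miR-376a*G against control). On the 7 arrays it was called higher than control in miR-376a*G (2.95, SE 0.44, adjusted p = 2.0e-04) and in miR-376a*A (3.41, SE 0.48, adjusted p = 2.3e-04), from control signals of 0.897 and 4.39 that are below the array median.

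Promoters are shown for a nidogen that fell (NID2), a laminin that rose (LAMA2) and the fibrillin that fell (FBN1), from the RefSeq promoter table. The choice was made after the values were seen. Each is 300 bases from 250 before to 50 after the start (GRCh38.p14), read 5′ to 3′ along the gene, with matches of 5 motifs in capitals, searched on both strands. The GC box, bound by SP1 and its relatives, was searched as GGGCGG. For the core of the hypoxia response element the letters were ACGTG. AP-1 sites, bound by dimers of Fos and Jun proteins, were searched as TGANTCA. Sites of the TEAD factors, which act with YAP and TAZ, were searched as GGAATG. The TATA box was searched as TATAAA. No motif contains another, and overlapping matches run together. NID2 lies at chr14:52069010-52069309 (minus strand), FBN1 at chr15:48644921-48645220 (minus strand) and LAMA2 at chr6:128882888-128883187 (plus strand).
NID2: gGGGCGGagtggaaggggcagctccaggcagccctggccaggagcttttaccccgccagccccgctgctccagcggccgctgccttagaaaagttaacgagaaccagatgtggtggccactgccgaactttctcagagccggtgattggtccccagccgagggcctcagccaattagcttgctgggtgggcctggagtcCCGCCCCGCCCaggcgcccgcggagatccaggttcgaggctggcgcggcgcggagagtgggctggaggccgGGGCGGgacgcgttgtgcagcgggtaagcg
FBN1: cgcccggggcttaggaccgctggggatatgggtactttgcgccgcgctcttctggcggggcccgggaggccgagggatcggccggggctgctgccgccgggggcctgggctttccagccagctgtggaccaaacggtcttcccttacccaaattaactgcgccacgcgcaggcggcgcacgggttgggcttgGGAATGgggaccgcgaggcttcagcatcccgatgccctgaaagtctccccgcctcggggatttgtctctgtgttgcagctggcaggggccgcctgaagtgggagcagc
LAMA2: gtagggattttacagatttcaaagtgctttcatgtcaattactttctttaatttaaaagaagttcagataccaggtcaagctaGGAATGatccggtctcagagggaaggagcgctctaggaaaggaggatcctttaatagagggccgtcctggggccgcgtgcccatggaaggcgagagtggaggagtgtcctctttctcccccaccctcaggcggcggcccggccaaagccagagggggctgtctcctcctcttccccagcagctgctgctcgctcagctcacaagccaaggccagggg

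NID2 held 4 GC boxes, of which a pair share 1 base, and none of the other motifs. FBN1 and LAMA2 each held 1 GGAATG and none of the others. GC content was 69.0% in NID2, 68.3% in FBN1 and 55.3% in LAMA2, against a median of 58.3% over 27305 genes and 68.7% over the 36 members with an entry. GC boxes were present for 28 of 36 members (77.8%, against 48.3% of all genes), ACGTG for 7 (19.4%, against 24.9%), TGANTCA for 5 (13.9%, against 9.37%), GGAATG for 7 (19.4%, against 16.7%) and TATAAA for 4 (11.1%, against 14.0%). A gene counted when any of its windows matched, and 8 of the 36 members had several starts. Of the 13 genes that fell in miR-376a*G against control, 10 had an entry, and of those 10, 8 held a GC box, 2 ACGTG, 1 GGAATG, and 0 TGANTCA or TATAAA.

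**Figure D4:**
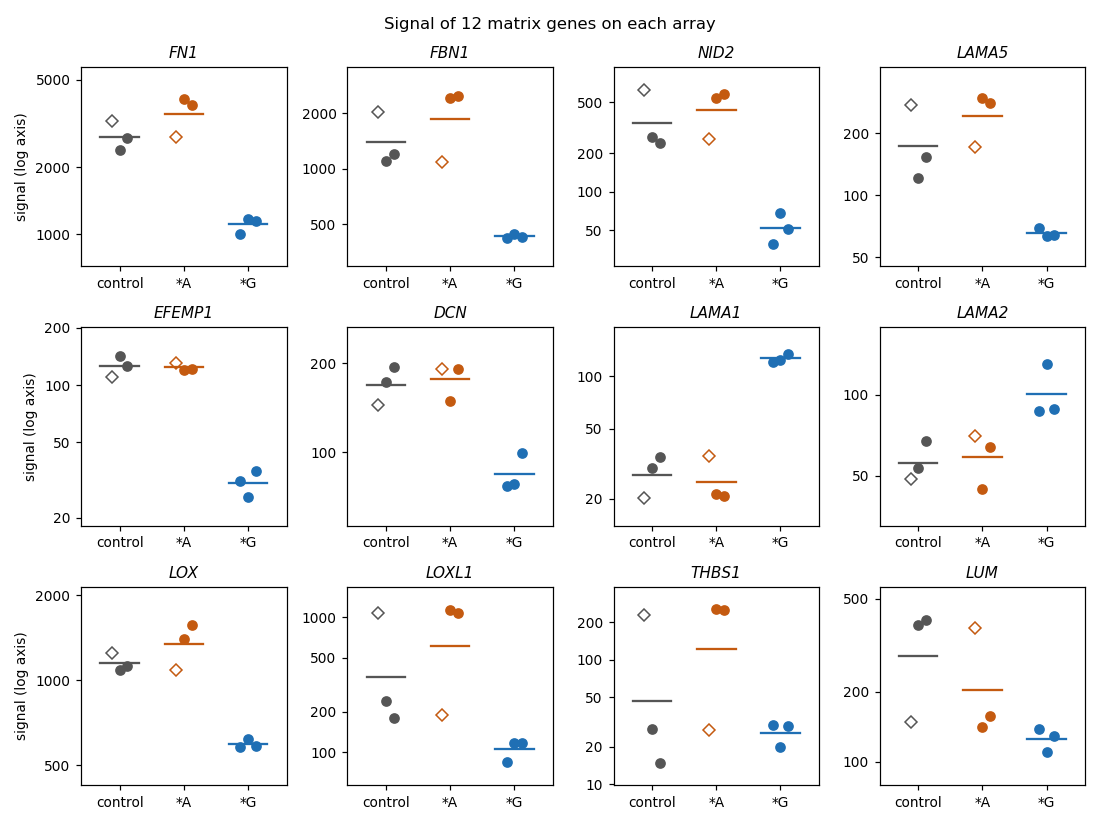
Signal (log axis) of 12 matrix genes on each array, by labelled group: control, miR-376a*A (*A) and miR-376a*G (*G). Lines are means on the log2 scale, and open diamonds are miR-376a*A replicate 1 and control replicate 1. These lie with the other label in LOXL1, THBS1 and LUM, and with smaller gaps in LAMA1 and EFEMP1. LAMA1 and EFEMP1 also separate miR-376a*G from all other arrays.

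Fibulins are calcium-binding proteins of elastic fibres and basement membranes, and 1 of the 3 tested fell in miR-376a*G. Of all genes, 15.4% were called lower against control and 16.4% against miR-376a*A, and 3 genes are too few to read as a family. EFEMP1, or fibulin-3, had a signal of 31.3, 25.8 and 35.4 on miR-376a*G, 111, 143 and 126 on control and 131, 121 and 121 on miR-376a*A. The control and miR-376a*A arrays overlapped fully, and all miR-376a*G arrays were far below them. EFEMP1 fell, with a difference of -2.0 (SE 0.16, adjusted p = 4.0e-05) against control and of -1.99 (SE 0.16, adjusted p = 3.9e-05) against miR-376a*A. It had the smallest adjusted p of the 38 genes in both, and on the 7 arrays the difference of miR-376a*A from control was -0.15 (SE 0.17, adjusted p = 0.525).

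EFEMP2, or fibulin-4, which brings lysyl oxidase to elastic fibres, had 306, 297 and 325 on miR-376a*G, 466, 261 and 224 on control and 197, 538 and 564 on miR-376a*A. The miR-376a*G arrays lay between the low and the high arrays of the other groups. With all 9 arrays it was called in no comparison (0.04, SE 0.40, adjusted p = 0.95, in miR-376a*G against control). With those arrays left out, it was higher than control in miR-376a*A by 1.19 (SE 0.10, adjusted p = 8.0e-06) and in miR-376a*G by 0.35 (SE 0.09, adjusted p = 0.00738). FBLN1 was dim, at 6.25 to 31.0, and above the array median on 5 arrays. Its differences were 0.61 in miR-376a*G and 0.59 in miR-376a*A against control, with a SE of 0.45, and neither was called.

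Thrombospondins are secreted proteins that bind cells, matrix and latent TGF-beta. None of the 3 was called with all 9 arrays (2 were higher in miR-376a*G than in control when scaled to the hybridisation controls). On the 7 arrays all 3 were higher in miR-376a*A than in control, as were 19.0% of all genes, and 2 of the 3 with scaling to the hybridisation controls. THBS1 had 27.1, 257 and 252 on miR-376a*A replicates 1, 2 and 3, 229.8, 28.0 and 14.7 on control and 29.9, 20.0 and 29.2 on miR-376a*G. Its high arrays were miR-376a*A replicates 2 and 3 and control replicate 1, and the remaining 6 lay together. The difference between miR-376a*A and control was 1.37 (SE 1.07, adjusted p = 0.886) with all 9 arrays and 3.58 (SE 0.29, adjusted p = 5.4e-06) on the 7. Control replicates 2 and 3 had 28.0 and 14.7 there, near their arrays' medians of 18.7 and 18.53, so the size of that difference is uncertain. Over the 7 arrays, THBS1 was lower in miR-376a*G than in miR-376a*A with a difference of -3.24 (SE 0.26, adjusted p = 1.6e-06), and its difference from control was 0.34 (SE 0.26, adjusted p = 0.294). A second probe set was called higher than control there (0.70, adjusted p = 0.00552).

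THBS2 had 245, 389 and 446 on miR-376a*A, 332, 185 and 204 on control and 305, 334 and 331 on miR-376a*G. The miR-376a*G arrays overlapped with control replicate 1 and lay above control replicates 2 and 3. In the 7-array fit, it was higher than control in miR-376a*A (1.10, SE 0.10, adjusted p = 1.7e-05) and in miR-376a*G (0.73, SE 0.09, adjusted p = 8.0e-05). The lower value in miR-376a*G against miR-376a*A (-0.37, SE 0.09, adjusted p = 0.00639) turned to 0.32 with scaling to the hybridisation controls. THBS3 had 66.5, 83.0 and 89.6 on miR-376a*A, 86.5, 51.1 and 61.9 on control and 85.0, 72.3 and 67.9 on miR-376a*G. Its differences from control on the 7 arrays were 0.61 (SE 0.16, adjusted p = 0.0124) in miR-376a*A and 0.40 (SE 0.15, adjusted p = 0.0396) in miR-376a*G, and the groups overlapped with all 9. For miR-376a*G against control on the 7 arrays, 1 thrombospondin was called with centring or quantile normalization, against 2 as deposited.

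Proteoglycans carry glycosaminoglycan chains, and 2 of the 4 tested fell in miR-376a*G, with 1 called higher when scaled to the hybridisation controls. Among all genes as deposited, 15.4% were called lower against control and 16.4% against miR-376a*A, and 4 genes are too few to read as a family. Decorin (DCN), a small leucine-rich proteoglycan that binds collagen fibrils, had 76.8, 77.8 and 99.3 on miR-376a*G, 144, 173 and 195 on control and 191, 149 and 192 on miR-376a*A. Each miR-376a*G array was below all others, and control and miR-376a*A overlapped. It fell, with a difference of -1.0 (SE 0.17, adjusted p = 0.00229) against control and of -1.06 (SE 0.17, adjusted p = 0.00157) against miR-376a*A. A pair of further probe sets above the filter fell as well (-1.38 and -0.96 against control), while 4 others were dim, and the call was lost when all 7 were averaged. Against miR-376a*A it was also lost with scaling to the hybridisation controls. The 7-array difference of DCN from control was -1.12 (SE 0.15, adjusted p = 9.6e-05).

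SPOCK1, or testican-1, had 449, 479.8 and 515 on miR-376a*G, 1286, 865 and 874 on control and 927, 1448 and 1437 on miR-376a*A. No miR-376a*G array reached the lowest of the others. It fell, with a difference of -1.04 (SE 0.21, adjusted p = 0.00452) against control and of -1.37 (SE 0.21, adjusted p = 9.8e-04) against miR-376a*A, and on the 7 arrays it was higher in miR-376a*A than in control (0.73, SE 0.09, adjusted p = 7.3e-05).

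Lumican (LUM), which spaces collagen fibrils, was the only gene besides LAMA1 called lower in miR-376a*A than in control on the 7 arrays. Its signal was 374, 140.5 and 157 on miR-376a*A, 148, 386 and 405 on control and 139, 110.4 and 129 on miR-376a*G. The high arrays were control replicates 2 and 3 and miR-376a*A replicate 1, the reverse of THBS1. With all 9 arrays LUM was not called (-1.18, SE 0.45, adjusted p = 0.0732, in miR-376a*G against control). On the 7 it was lower than control in miR-376a*A (-1.41, SE 0.12, adjusted p = 1.1e-05) and in miR-376a*G (-1.65, SE 0.11, adjusted p = 8.3e-07), and miR-376a*G minus miR-376a*A was -0.24 (SE 0.11, adjusted p = 0.0889).

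Versican (VCAN), a large chondroitin sulfate proteoglycan, had 745, 817 and 761 on miR-376a*G, 793, 553 and 535 on control and 556, 760.1 and 839.7 on miR-376a*A. The groups overlapped, and it was not called with all 9 arrays (0.33, SE 0.19, adjusted p = 0.211, in miR-376a*G). Without the arrays that stand apart, it was higher than control with both forms, by 0.55 (SE 0.09, adjusted p = 5.1e-04) for miR-376a*A and 0.51 (SE 0.08, adjusted p = 3.1e-04) for miR-376a*G. Of its 4 other probe sets, 2 were called higher in miR-376a*G there and 2 were not.

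All 5 lysyl oxidases passed the filter, and in miR-376a*G 1 fell against control (LOX) and 3 against miR-376a*A (LOX, LOXL1 and LOXL3). Of all genes tested, 15.4% were called lower against control and 16.4% against miR-376a*A, and 1 of 5 is near the former. The family's median was -0.96 against control and -1.18 against miR-376a*A, and stayed below 0 under each of the 5 scalings tried. In the fit of 7 arrays, all 5 were called higher in miR-376a*A than in control, as were 19.0% of all genes. With centring or with scaling to the hybridisation controls, 4 of the 5 were. The latter scaling also gave 2 called higher and 3 lower in miR-376a*G against control on those arrays. LOX, the founding member, had 579.9, 619 and 582 on miR-376a*G, 1251, 1089 and 1127 on control and 1092, 1405 and 1573 on miR-376a*A. All miR-376a*G arrays lay below the others, and control and miR-376a*A overlapped. LOX fell, with a difference of -0.96 (SE 0.13, adjusted p = 6.9e-04) against control and of -1.18 (SE 0.13, adjusted p = 2.1e-04) against miR-376a*A. A pair of further probe sets also fell (-1.01 and -0.78 against control). LOX was higher in miR-376a*A than in control on the 7 arrays (0.42, SE 0.09, adjusted p = 0.00251).

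LOXL1, which is needed for elastic fibre upkeep, spanned a wide range. It had 190.2, 1135 and 1079 on miR-376a*A, 1075, 239.8 and 179.5 on control and 84.6, 118 and 117 on miR-376a*G. Control replicate 1 was as bright as miR-376a*A replicates 2 and 3, and miR-376a*A replicate 1 was among the dim controls. The difference of miR-376a*G from control as labelled was -1.76 (SE 0.79, adjusted p = 0.118), and LOXL1 fell, with a difference of -2.54 (SE 0.79, adjusted p = 0.0318) against miR-376a*A, a call lost in 7 of 19 settings. With those arrays left out, it was higher in miR-376a*A than in control by 2.41 (SE 0.17, adjusted p = 2.6e-06) and lower in miR-376a*G than in control, with a difference of -0.97 (SE 0.16, adjusted p = 3.9e-04).

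LOXL3 followed the same order, with 389, 913 and 920.4 on miR-376a*A, 858, 389 and 434 on control and 244, 231 and 263 on miR-376a*G. The miR-376a*G arrays lay below all others, and it missed the threshold against control (-1.09, SE 0.37, adjusted p = 0.0509) but passed against miR-376a*A (-1.48, SE 0.37, adjusted p = 0.0132), where the call was lost with scaling to the hybridisation controls and without miR-376a*A replicate 3. Over the 7 arrays, it differed from control by 1.16 (SE 0.10, adjusted p = 6.7e-06) in miR-376a*A and -0.74 (SE 0.09, adjusted p = 3.8e-05) in miR-376a*G.

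LOXL2 had 1146, 2661 and 2678 on miR-376a*A, 2436, 1374 and 1288 on control and 1347, 1318 and 1582 on miR-376a*G. Here the miR-376a*G arrays were among the dimmer arrays of the other labels, and LOXL2 was called in no comparison with all 9 (-0.21, SE 0.34, adjusted p = 0.675, in miR-376a*G). On the 7 it was higher in miR-376a*A than in control by 1.00 (SE 0.10, adjusted p = 2.2e-05), while miR-376a*G differed from control by 0.08 (SE 0.09, adjusted p = 0.442).

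LOXL4 was near the array median except on 3 arrays. It had 12.7, 124 and 118 on miR-376a*A, 127, 20.3 and 23.0 on control and 27.7, 20.9 and 26.9 on miR-376a*G. The 3 bright arrays were miR-376a*A replicates 2 and 3 and control replicate 1. In the 7-array fit, miR-376a*A was higher than control by 2.44 (SE 0.21, adjusted p = 8.2e-06) and miR-376a*G differed from control by 0.20 (SE 0.19, adjusted p = 0.387). A second, dim probe set gave -1.34 (adjusted p = 0.0818) for miR-376a*A against control there, in the other direction and not called.

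Elastic fibres consist of elastin on a scaffold of fibrillin microfibrils. Of the 9 tested genes of this group, 3 fell in miR-376a*G against control (FBN1, LTBP1 and LTBP3) and none rose. Against miR-376a*A, 4 fell (those and MFAP2) and none rose. The shares of all genes called were 15.4% lower and 18.0% higher against control, and 16.4% and 21.8% against miR-376a*A. With scaling to the hybridisation controls 2 fell and 2 rose against control, and 2 fell and 3 rose against miR-376a*A. Fibrillin-1 (FBN1), the main microfibril protein, had 422, 441 and 426 on miR-376a*G, 2048, 1106 and 1205 on control and 1090, 2415 and 2501 on miR-376a*A. The miR-376a*G arrays were within a narrow range, well below the other 6, of which miR-376a*A replicates 2 and 3 and control replicate 1 were the brightest. FBN1 fell, with a difference of -1.70 (SE 0.33, adjusted p = 0.004) against control and of -2.12 (SE 0.33, adjusted p = 0.00113) against miR-376a*A, and its other probe sets fell, with a difference of -1.70 and -1.82 against control. Without the arrays that stand apart, it was higher in miR-376a*A than in control by 1.09 (SE 0.08, adjusted p = 3.3e-06).

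Fibrillin-2 (FBN2), more typical of developing tissue, was not called with all 9 arrays. It had 129.7, 131 and 143 on miR-376a*G, 209, 77.8 and 76.0 on control and 72.5, 231 and 207 on miR-376a*A. The miR-376a*G arrays lay between the high and the low arrays of the other labels. With all 9 arrays the difference from control was 0.32 (SE 0.49, adjusted p = 0.64), and on the 7 it was 0.80 (SE 0.10, adjusted p = 8.5e-05) in miR-376a*G and 1.5 (SE 0.11, adjusted p = 4.1e-06) in miR-376a*A.

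Latent TGF-beta binding proteins hold TGF-beta in the matrix, and 2 of the 3 fell in miR-376a*G, where 15.4% of all genes were called lower against control and 16.4% against miR-376a*A. LTBP1 had 724, 677 and 722 on miR-376a*G, 1247, 1057 and 1083 on control and 1090, 1383 and 1497 on miR-376a*A. LTBP3 had 98.3, 105 and 132, 400.1, 297 and 221 and 269.9, 387 and 447 in the same order. In both, each miR-376a*G array was below all others. LTBP1 fell, with a difference of -0.67 (SE 0.12, adjusted p = 0.00334) against control, a call lost with scaling to the hybridisation controls, and LTBP3 fell, with a difference of -1.42 (SE 0.25, adjusted p = 0.00273). Against miR-376a*A they fell, with a difference of -0.89 and -1.69, where the call of LTBP1 was again lost with that scaling. On 7 arrays both were higher in miR-376a*A than in control, by 0.43 and 0.70.

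LTBP2, which does not bind latent TGF-beta, had 358, 376.3 and 411 on miR-376a*G, 367, 205 and 209 on control and 214, 375 and 395 on miR-376a*A. The miR-376a*G arrays were as bright as control replicate 1 and miR-376a*A replicates 2 and 3. It was not called with all 9 arrays (0.60, SE 0.28, adjusted p = 0.13, in miR-376a*G against control). On the 7 it was higher than control by 0.88 (SE 0.09, adjusted p = 1.1e-05) in miR-376a*G and by 0.89 (SE 0.09, adjusted p = 3.7e-05) in miR-376a*A, and miR-376a*G minus miR-376a*A was -0.01 (SE 0.09, adjusted p = 0.915).

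The microfibril-associated protein MFAP2 had 376.1, 347 and 366 on miR-376a*G, 809, 474 and 496 on control and 419, 828 and 719 on miR-376a*A. The miR-376a*G arrays were the dimmest, and it fell against miR-376a*A (-0.79, SE 0.27, adjusted p = 0.0464), a call lost in 12 of 19 settings, but was not called against control (-0.66, SE 0.27, adjusted p = 0.0918). On the 7 it was called lower than control in miR-376a*G (-0.42, SE 0.09, adjusted p = 0.00187) and higher in miR-376a*A (0.67, SE 0.09, adjusted p = 2.4e-04). MFAP5 was dim, at 29.6, 27.8 and 23.3 on miR-376a*G, 19.7, 15.8 and 16.6 on control and 16.6, 24.4 and 25.7 on miR-376a*A. It was called only on the 7 arrays, where miR-376a*G was higher than control by 0.69 (SE 0.23, adjusted p = 0.0243). Elastin (ELN, 7.33 to 33.0) and EMILIN2 (24.2 to 34.2) were near the array median, and neither was called in any comparison on 9 or 7 arrays as deposited.

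Fibronectin (FN1) is the adhesive protein on which much of the matrix assembles. Its signal was 999.7, 1173 and 1150 on miR-376a*G, 3233, 2397 and 2712 on control and 2739, 4065 and 3830 on miR-376a*A. The groups had means of 1107 ± 94.0 (SD, n = 3), 2780 ± 422 (SD, n = 3) and 3545 ± 708 (SD, n = 3), and miR-376a*G did not overlap with the others. FN1 fell, with a difference of -1.32 (SE 0.16, adjusted p = 3.7e-04) against control and of -1.66 (SE 0.16, adjusted p = 1.0e-04) against miR-376a*A, and on the 7 arrays it was higher in miR-376a*A than in control by 0.63 (SE 0.10, adjusted p = 6.0e-04). On miR-376a*A replicate 2 its signal of 4065 stood near the array's highest value of 4336.

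FN1 has 6 other probe sets, all above the filter, and the size of its fall depended on which was read. In a fit over all probe sets above the filter, 3 of them gave -1.23, -1.22 and -1.18 in miR-376a*G against control, close to that of the one used for the gene. The other 3 gave -2.18 (adjusted p = 0.0292), -3.01 (adjusted p = 0.00398) and -3.23 (adjusted p = 0.00688). On the one with the second largest fall, for instance, the signal was 35.7, 32.7 and 35.5 on miR-376a*G, 690.4, 149 and 229.5 on control and 192, 591 and 596 on miR-376a*A. These 3 also differed more between miR-376a*A and control on the 7 arrays (2.19, 1.68 and 2.05) than the first 4 did (0.51 to 0.63). On the probe set with the largest fall, all miR-376a*G signals (20.0, 10.6 and 11.8) were below their arrays' medians, so the size of its difference is uncertain. Which transcripts each probe set reads was not tested.

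**Figure D5:**
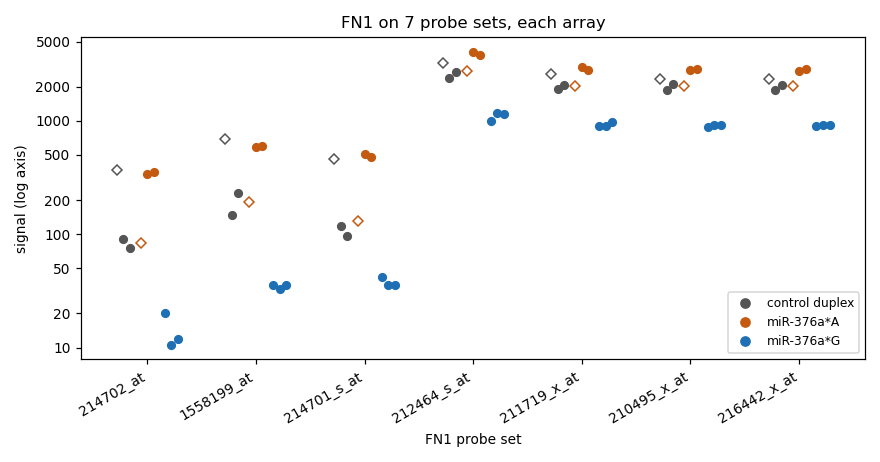
Signal (log axis) of each FN1 probe set on each array, ordered by the difference of miR-376a*G from control. Open diamonds are control replicate 1 and miR-376a*A replicate 1; miR-376a*G is lowest on all 7, with a wider gap on 3 probe sets (differences of -2.18 to -3.23) than on the other 4 (-1.18 to -1.32).

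TGFBI, a secreted adhesion protein induced by TGF-beta, had 1315, 1448 and 1361 on miR-376a*G, 2622, 2193 and 2478 on control and 2509, 2969 and 3077 on miR-376a*A. All miR-376a*G arrays were below the others. It fell, with a difference of -0.82 (SE 0.10, adjusted p = 3.3e-04) against control and of -1.05 (SE 0.10, adjusted p = 8.5e-05) against miR-376a*A, and on the 7 arrays it was higher in miR-376a*A than in control by 0.37 (SE 0.09, adjusted p = 0.00645).

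SPARC, a collagen-binding matricellular protein, had 1401, 1483 and 1447 on miR-376a*G, 1696, 1510 and 1602 on control and 1660, 2192 and 2278 on miR-376a*A. The miR-376a*G arrays were the lowest, but close to the controls, and the difference from control was -0.15 (SE 0.12, adjusted p = 0.351). It fell against miR-376a*A, with a difference of -0.49 (SE 0.12, adjusted p = 0.0101) that turned to 0.18 (adjusted p = 0.156) with scaling to the hybridisation controls and was not called with scaling to the poly-A controls. In the fit of 7 arrays, it was higher in miR-376a*A than in control by 0.52 (SE 0.08, adjusted p = 3.8e-04).

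Tenascin-C (TNC), a glycoprotein abundant in glioma matrix, had 1730, 1837 and 1738 on miR-376a*G, 1925, 1462 and 1639 on control and 1535, 2314 and 2100 on miR-376a*A. The groups overlapped, and no comparison with 9 arrays was called (0.09, SE 0.15, adjusted p = 0.692, in miR-376a*G against control). On the 7 it was higher in miR-376a*A than in control by 0.51 (SE 0.09, adjusted p = 0.00107), and lower in miR-376a*G than in miR-376a*A, with a difference of -0.32 (SE 0.08, adjusted p = 0.00621), which turned to 0.37 with scaling to the hybridisation controls. ECM1, at 169.5 to 224, was called in no comparison on 9 or 7 arrays as deposited. Its difference from control was -0.01 in miR-376a*G and 0.00 in miR-376a*A with all 9.

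A further 87 matrix genes were listed by name, also with earlier results of these data known, and 44 of them were tested. In miR-376a*G against control 4 rose and 13 fell, with a median of -0.15, while 5 rose and 17 fell against miR-376a*A. None was called in miR-376a*A against control. Over all genes tested, 18.0% were called higher and 15.4% lower against control, and 21.8% and 16.4% against miR-376a*A. On the 7 arrays 10 of the 44 were higher and 19 lower in miR-376a*G than in control, against 31.2% and 25.0% of all genes. The 4 with the smallest p in miR-376a*G against control were GPC6 (-2.65, SE 0.25, adjusted p = 1.0e-04), a glypican, SRGN (-1.71, SE 0.17, adjusted p = 1.5e-04), the granule proteoglycan serglycin, SERPINH1 (-2.27, SE 0.33, adjusted p = 8.8e-04), a collagen chaperone, and CCN1 (1.21, SE 0.17, adjusted p = 8.8e-04), a matricellular protein. GPC6 had 74.9, 76.6 and 68.4 on miR-376a*G, 323, 580.3 and 538 on control and 514, 334 and 308 on miR-376a*A. SERPINH1 had 170.0, 189 and 186, 1358, 697 and 710.0 and 710.1, 1433 and 1500. In both the miR-376a*G arrays were the lowest, whereas CCN1 was highest there, at 528, 464 and 547 against 174, 230.1 and 269 on control. The 7-array differences of these genes from control were -2.91 for GPC6, -1.86 for SRGN, -1.95 for SERPINH1 and 1.04 for CCN1.

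By list, collagen-modifying and other crosslinking enzymes had 5 lower and 1 higher of 12 tested in miR-376a*G against control, with a median of -0.20. Other proteoglycans had 4 lower and 1 higher of 10, other matricellular proteins 3 lower and 2 higher of 12, other basement membrane genes 1 lower of 3, and other elastic fibre genes and matrix receptors 0 called of 4 and of 3 by limma, with 2 and 2 called lower on the 7 arrays. Over all genes 15.4% were called lower and 18.0% higher, and several of these lists are near those shares. With those arrays left out, 19 of the 44 were higher and 10 lower in miR-376a*A than in control. There 19.0% of all genes were called higher and 22.9% lower, and 10 of 44 is near the latter.

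Markers of other cell types moved in part with the same groups. Of 4 fibroblast and pericyte markers, of which DCN and LUM are members here, PDGFRB was lower in miR-376a*G than in control (-2.65, SE 0.73, adjusted p = 0.0209) and RGS5 higher (1.35, SE 0.21, adjusted p = 0.00126). PDGFRB had 26.6, 4.54 and 15.96 on miR-376a*G, 173, 57.9 and 61.5 on control and 51.2, 206 and 193 on miR-376a*A. Its miR-376a*G signals lay near or below their arrays' medians of 24.57, 21.74 and 23.63, so the size of its fall is uncertain. Of 4 endothelial markers, CDH5 (9.32 to 21.5) and VWF (2.13 to 6.92) were dim, PECAM1 was not called (0.53, SE 0.49, adjusted p = 0.438) and KDR was higher (1.23, SE 0.32, adjusted p = 0.0174). Of 4 neuronal markers, 3 were tested and SYT1 was lower (-1.12, SE 0.16, adjusted p = 7.5e-04), while SNAP25 and SYP were not called. On the 7 arrays, markers moved with miR-376a*A too. SNAP25 was higher there than in control by 2.93 (adjusted p = 5.9e-08), SYP by 1.92 (adjusted p = 0.00453), PDGFRB by 1.72 (adjusted p = 0.0269) and PECAM1 by 1.31 (adjusted p = 6.1e-04). SYP had only 5.21 and 6.12 on control replicates 2 and 3, below their arrays' medians, so the size of its difference is uncertain. SNAP25 had 254, 1656 and 1825 on miR-376a*A, 1498, 239.6 and 214 on control and 197, 192 and 179 on miR-376a*G, the same high arrays as THBS1. In miR-376a*G against control the 7-array differences were 1.12 (adjusted p = 6.1e-04) for PECAM1, 1.46 (adjusted p = 8.2e-04) for KDR, 1.36 (adjusted p = 4.3e-04) for RGS5, -2.14 (adjusted p = 0.00392) for PDGFRB, -0.99 (adjusted p = 8.8e-05) for SYT1 and -0.26 (adjusted p = 0.0291) for SNAP25. The part of these genes in the matrix differences was not tested.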

How the data were processed

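RNA of U87 cells was measured on 9 Affymetrix arrays of 1 colour. The deposited values are intensities, 1 per probe set and array on a linear scale; the submitters' processing notes name GCOS 1.4.0.036, and the authors scaled each array to 1 trimmed mean (2% cut at each end), as the values show. The method that summarised probes into probe sets is not stated in these sources. The labels call the arrays biological replicates and do not say whether cultures were separate, so p-values measure only the spread between these samples.

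Values were turned into log2(signal + 1). Of 54675 probe sets, 41097 named 1 gene, 1801 several and 11777 none in the platform annotation. Genes above the array's median on at least 3 arrays were tested with limma 3.58.1 (lmFit and eBayes with a trend, all 9 arrays, 1 coefficient a group, two-sided) in R 4.3.3, with Benjamini-Hochberg adjustment over all genes tested, after checks on simulated data. Figures used Python 3.11.15 and matplotlib 3.10.9. Alternatives were a pseudocount of 16, other filters, 4 other scalings, the mean over probe sets, array weights, the replicate block, each array left out, and both arrays that stand apart left out, the last chosen after seeing the data. The members and the other lists were chosen with earlier results of these data known. Every member is accounted for, with signals on every array for those called in any comparison and for the laminins, fibulins, thrombospondins, proteoglycans and lysyl oxidases above the filter; of other matrix genes, the 4 of smallest p against control in miR-376a*G are named. The number of arrays limits the precision.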

Additional observations from a re-analysis of the deposited data

How the results depend on the processing

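As labelled, 0, 15 and 19 matrix genes were called in miR-376a*A against control, miR-376a*G against control and miR-376a*G against miR-376a*A. With array weights, which gave 0.154 to miR-376a*A replicate 1 and 0.165 to control replicate 1, the counts were 31, 28 and 28. On the 7 arrays without both they were 30, 27 and 28, a choice made after earlier results of these data were known. There, with arrays centred on their median, they were 27, 24 and 31, with quantile normalization 29, 26 and 29, with scaling to the hybridisation controls 23, 33 and 27, and with scaling to the poly-A controls 29, 29 and 26. Leaving out each array in turn gave 0 to 0, 15 to 21 and 15 to 26, with 21 and 26 without miR-376a*A replicate 1. The pseudocount, the filters, the mean over probe sets and other scalings with 9 arrays kept each count within 1.5 times. Splits of higher to lower calls did change with scaling: for miR-376a*G against control, 2 to 13 became 8 to 12 with the hybridisation controls and 7 to 13 with the poly-A controls, and against miR-376a*A, 2 to 17 became 9 to 11 with the hybridisation controls. On 7 arrays, 10 to 17 in miR-376a*G against control became 18 to 15 with the hybridisation controls, 13 to 16 with the poly-A controls and 5 to 19 with centring, and 2 to 26 against miR-376a*A became 10 to 17 with the hybridisation controls.

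The replicate block gave 0, 14 and 16 calls. Deviations from group means had correlations of -0.88 to 0.05 between same-numbered arrays, and 0 of 9 arrays correlated best with their own number. Between miR-376a*A and control they were -0.88, -0.61 and -0.56 for replicates 1, 2 and 3. The arrays that stand apart shift their groups' means and so these deviations, and the check cannot show pairing or its absence. The numbers were not taken as pairs in the main fit.

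Among differences called in at least 1 of the settings compared, scaling to the hybridisation controls gave a sign opposite to that with 9 arrays as deposited in miR-376a*G against miR-376a*A for SPARC (0.18), TNC (0.52), THBS3 (0.58), ECM1 (0.65) and EMILIN2 (0.51) with 9 arrays, and for SPARC (0.06), TNC (0.37), THBS2 (0.32), THBS3 (0.48), ECM1 (0.57) and LUM (0.44) on 7. In miR-376a*G against control on 7 arrays, that scaling gave SPARC 0.31, THBS1 0.73, LAMA4 0.38, ECM1 0.47, LOXL2 0.50 and LOXL4 0.60, and scaling to the poly-A controls gave LOXL2 0.32. These are opposite in sign to the values with 9 arrays as deposited, but THBS1 (0.34), LOXL2 (0.08), LOXL4 (0.20) and ECM1 (0.06) were already above 0 on 7 arrays as deposited. Signs also turned without a call, as for THBS2 (from -0.11 to 0.55) and EFEMP2 (from -0.34 to 0.33) against miR-376a*A with 9 arrays. On 7 arrays VCAN against miR-376a*A went from -0.05 as deposited to 0.64. Among these, only SPARC against miR-376a*A was a call with 9 arrays as deposited. The cause was not tested.

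With 3 arrays a group an exact permutation test cannot go below 0.1, so calls rest on limma's shared estimate of spread, and with 7 arrays on 2 against 2 for miR-376a*A and control. Dim genes near the array median (NID1, LOXL4, THBS1, LAMA1, FBLN1, ELN, MFAP5) have differences compressed by the pseudocount, and the brightest genes stand near the top of the scale.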

Other observations

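Among the 38 matrix genes, 3 patterns over the arrays can be read from the values given above, as a description made after they were seen. LAMA1, EFEMP1 and DCN separated the 3 miR-376a*G arrays from the other 6, which overlapped as labelled. Of those 6, miR-376a*A replicates 2 and 3 and control replicate 1 were the lowest in LAMA1 and EFEMP1, but not in DCN. FN1, FBN1, NID2, LAMA5 and SPOCK1 also separated miR-376a*G, as the lowest arrays, and were highest on miR-376a*A replicates 2 and 3 and control replicate 1. EFEMP2 and FBN2 were on miR-376a*G between the high and the low arrays of the other labels.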
